A study of Mus musculus with 359 samples.

Results

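Liver gene expression after 2 days of gavage with 4-methylimidazole (4-MEI) at 100 mg/kg-d was compared with that of vehicle-treated mice. The comparison used 24 liver RNA libraries, out of 359 libraries of liver and lung in the series: 6 of males and 6 of females at 100 mg/kg-d, and 6 of males and 6 of females given vehicle (0 mg/kg-d). All came from B6C3F1 mice, a first-generation cross of 2 inbred strains, and all were taken at day 2. No source used here gives the age of the mice or ties each library to a mouse of its own, so p-values measure the spread between these libraries. Libraries were chosen by their tissue, day, dose and sex labels alone, and none of the measured values entered that choice. The neighbouring doses, 50 and 200 mg/kg-d, with 12 libraries each, served for direct tests between doses.

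4-MEI is a small nitrogen heterocycle that forms when sugars are heated with ammonia, and it occurs in caramel colours. The liver clears such compounds with cytochrome P450 enzymes and conjugating enzymes. Many of these are under the control of the nuclear receptors CAR and PXR, of the aryl hydrocarbon receptor AHR and of the oxidant-responsive factor NRF2. Hepatocytes also secrete most plasma proteins, which loads their endoplasmic reticulum (ER), and they make acute phase proteins during inflammation. In mice the liver is strongly sex-biased, since the pattern of growth hormone release differs between males and females, and many of its genes follow the circadian clock and the last meal.

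Library totals ran from 8457034 to 20405658 counts, with a median of 13431762. The female libraries at 100 mg/kg-d reached the highest totals, 10425283 to 20405658, and the male vehicle libraries the lowest, 8457034 to 12857743. Levels are given as CPM, the counts of a gene scaled to library size with TMM factors, as the lowest, the median and the highest of the 6 libraries of a group, and changes as log2 fold changes against vehicle (log2FC), with their standard error (SE). Summed Y-linked genes matched the labelled sex in all 24 libraries, and Xist in the male libraries reached at most 1.36% of its female vehicle mean. The hepatocyte gene Alb, which encodes albumin, had a mean of 94430 CPM in male vehicle and 131616 CPM in female vehicle libraries. One property separated libraries of the same group before any comparison. Of the 6 male vehicle libraries, replicates 5, 6, 7 and 8 held 0.200% to 1.36% of the Xist level of female vehicle libraries, and replicates 1 and 3 at most 0.0128%. Results that rest on this are given with and without these 4 libraries.

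After 2 days at 100 mg/kg-d more genes passed the test in male than in female liver, and most of the changes were small. With the effect averaged over the sexes, 505 of 12354 genes tested (4.09%) passed an adjusted p of 0.05 in edgeR's quasi-likelihood test, 264 higher (2.14%) and 241 lower (1.95%). Their median absolute log2 fold change was 0.29, and 8 of them moved by more than 1 on the log2 scale. In males alone 861 genes passed (6.97%), 492 higher (3.98%) and 369 lower (2.99%), with a median absolute log2 fold change of 0.38. In females alone 10 passed (0.0809%), 5 in each direction (0.0405%), although 1575 genes had an unadjusted p under 0.05. The difference between the sexes itself passed for 110 genes (0.89%), in 60 with the higher value in females (0.486%) and in 50 with the higher value in males (0.405%). Of the 861 genes called in males, 487 had the same sign in females, and their median absolute change in females was 0.08. Of the 505 genes called in the average over the sexes, 481 had the same sign in both sexes, 306 were also called in males and 7 in females, and 362 had the larger change in males. Selection by the average favours genes with equal signs, so the 481 do not measure agreement between the sexes.

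**Figure D1:**
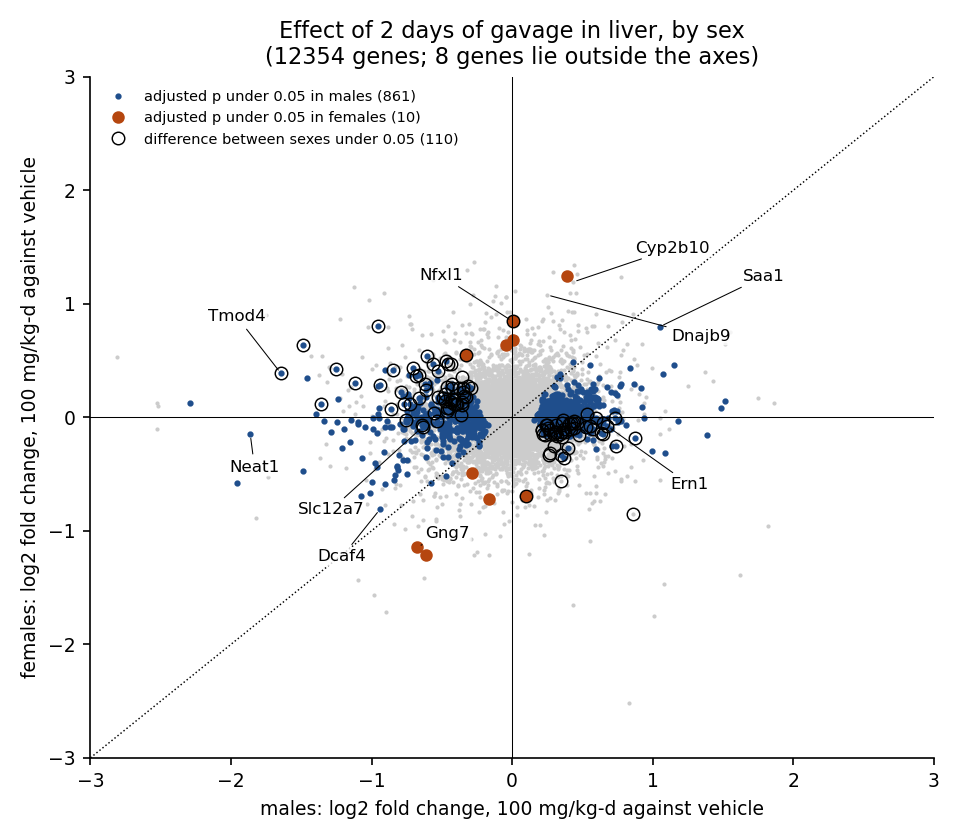
Log2 fold change at 100 mg/kg-d against vehicle in males (horizontal axis) and females (vertical axis), 1 point per gene of 12354 tested, with 8 genes outside the axes. The 861 genes called in males spread along the horizontal axis, the 10 called in females lie near the vertical axis or on the lower left, and rings mark the 110 genes whose effect differed between the sexes.

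The number of calls rested on single libraries and on settings. Leaving out 1 library at a time gave 202 to 837 calls in the average and 442 to 1219 in males, lowest without male vehicle replicate 3 or male replicate 40 at 100 mg/kg-d for the average and without male vehicle replicate 6 for males. Without the 4 male vehicle libraries that held Xist, males had 386 calls, 270 of them among the 861, and the average had 424. That fit kept only male vehicle replicates 1 and 3, so it had less power to call a gene. Those replicates also held more Dbp, 117.4 and 121.6 CPM, against 18.9 to 45.3 CPM in replicates 5 to 8. For calls lost in that fit, Xist, the number of libraries and other differences between these libraries cannot be told apart.

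The genes with the smallest adjusted p in the average over the sexes were mostly lower at the dose. Dcaf4, a substrate receptor of the CUL4-DDB1 ubiquitin ligase, fell in the average (log2FC -0.88, SE 0.13, adjusted p = 0.00293). In males it went from 2.03, 2.78 and 4.99 CPM in vehicle libraries to 1.06, 1.66 and 2.03 CPM. Its female levels went from 3.18, 3.40 and 4.56 to 1.88, 2.06 and 2.54 CPM. Every library at the dose lay below the lowest vehicle library of its sex, in males by a margin lost in rounding, and Dcaf4 (chromosome 12, 83520466 to 83541920, GRCm38) and Araf were the only genes of 12354 (0.0162%) for which this held in both sexes, with none on the higher side. Araf, a RAF family kinase at the head of the MAP kinase cascade, moved less (log2FC -0.21, SE 0.04, adjusted p = 0.01) in the average. Its levels went from 62.6, 64.2 and 70.9 to 49.01, 53.3 and 60.3 CPM in males. In females they went from 58.6, 64.4 and 66.3 to 54.4, 57.8 and 58.5 CPM. Single groups seldom separated this way: it held for 2.4% of genes in males, 1.43% above and 0.971% below vehicle, and for 1.51% in females, 0.858% above and 0.648% below. The male calls of both genes were lost without the 4 male vehicle libraries with Xist, and their calls in the average were not. Araf was picked out for this separation after its values were seen.

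Slc12a7, the potassium-chloride cotransporter KCC4, had the smallest adjusted p of the genes named in males. Its male levels went from 108.3, 118.5 and 134.8 CPM to 65.05, 79.5 and 87.98 CPM, with no overlap, log2FC -0.64 (SE 0.08, adjusted p = 0.000114). In females they went from 105.5, 112.4 and 120.2 to 92.5, 105.4 and 116.9 CPM, and the groups overlapped, with log2FC -0.08 (adjusted p = 0.685). The difference between the sexes was 0.55 log2 units (SE 0.11, adjusted p = 0.02), and that call was lost without the 4 male vehicle libraries with Xist and in a fit of all 10 groups of the day (5 dose levels, 2 sexes). The mitochondrial enzymes Fdxr and Ppox fell in males too. Fdxr, ferredoxin reductase, which passes electrons to mitochondrial P450 enzymes, went from 21.2, 26.4 and 28.3 CPM to 14.6, 16.5 and 18.3 CPM in males, log2FC -0.64 (SE 0.08, adjusted p = 0.000258) against log2FC -0.07 (adjusted p = 0.771) in females. Ppox, protoporphyrinogen oxidase of heme synthesis, fell in males (log2FC -0.55, adjusted p = 0.00179) and in the average (log2FC -0.37, adjusted p = 0.00865). Among the other genes with the smallest adjusted p in the average, Galt, which converts galactose-1-phosphate, had log2FC -0.36 (adjusted p = 0.00838) and Cyth1, an exchange factor for ARF GTPases, log2FC -0.42 (adjusted p = 0.00838).

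On the higher side, Srf, the serum response factor that drives growth-factor and actin-linked genes, rose in the average (log2FC 0.36, SE 0.06, adjusted p = 0.00956). It went from 8.61, 10.5 and 12.5 to 10.95, 13.3 and 15.03 CPM in males. Its female levels went from 9.93, 10.3 and 12.5 to 12.7, 13.9 and 14.4 CPM. The female groups did not overlap and the male groups did, and the log2FC was 0.34 in males and 0.38 in females. Bdp1, a subunit of the RNA polymerase III factor TFIIIB, rose (log2FC 0.38, adjusted p = 0.00865), and Man1a, a Golgi mannosidase that trims N-glycans (log2FC 0.25, adjusted p = 0.0106). The E3 ubiquitin ligase Mex3c rose (log2FC 0.35, adjusted p = 0.0102), as did the E3 ubiquitin ligase Rnf144b (log2FC 0.35, adjusted p = 0.0102). Skil, an inhibitor of SMAD signalling, had log2FC 0.51 (adjusted p = 0.0106). By size, of the called genes that the naming rule admits, those with the highest average effects were Saa1, Ect2, Ces4a, Dnajb9, Fam84b, Treh, Crybg3, Nrep, H2afx and Nbea, with log2FC between 0.58 and 0.93. Of these, Crybg3 had a log2FC of 0.61 in males and 0.65 in females. Ect2, an exchange factor needed for cytokinesis, had a log2FC of 1.52 in males and 0.14 in females. The calls of Ect2, Ces4a, Fam84b, Nbea, Dnajb9 and H2afx in the average were lost without the 4 male vehicle libraries with Xist, and those of Saa1, Treh, Nrep, Skil and Rnf144b in the fit of all 10 groups. The male calls of Mex3c and Srf were lost without those 4 libraries too.

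Some of the genes with the lowest average effects were at low levels. Gnat1, the alpha subunit of rod transducin, fell (log2FC -1.26, SE 0.25, adjusted p = 0.0123), from 3.81, 6.60 and 12.1 to 1.87, 2.36 and 5.23 CPM in males. In females Gnat1 went from 7.69, 13.9 and 20.3 to 2.69, 4.65 and 12.4 CPM, where replicate 43 alone lay far above the other 5. Gng7, a G protein gamma subunit, fell (log2FC -0.91, adjusted p = 0.0106) in the average and, unlike most genes, was called in females (log2FC -1.14, SE 0.23, adjusted p = 0.0414). Its female levels went from 1.68, 1.92 and 2.34 to 0.538, 0.888 and 1.22 CPM. Camkmt, the calmodulin lysine methyltransferase, had log2FC -1.21 (adjusted p = 0.0414) in females, from 0.647, 1.38 and 1.62 to 0.376, 0.507 and 0.742 CPM. The calls of Gng7 and Camkmt in the average and in females were lost without the 4 male vehicle libraries with Xist, which enter the female test only through the shared filter, scaling and estimate of the spread.

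**Figure D2:**
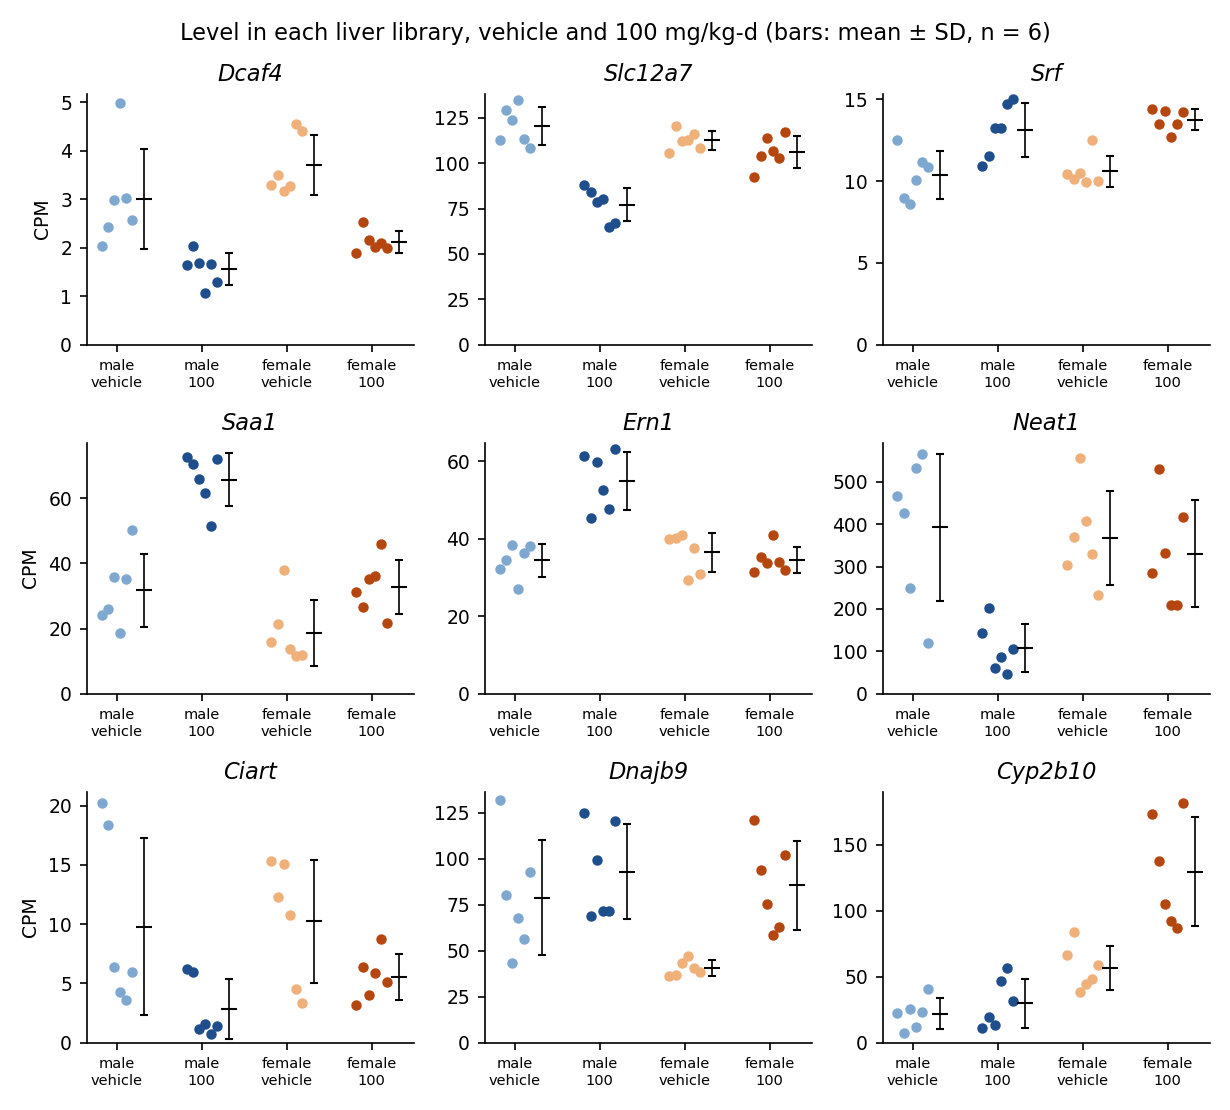
Level of 9 genes in each of the 24 libraries (CPM, linear axes from 0), with the mean and SD of the 6 libraries of a group beside the points. Dcaf4 separates the groups of both sexes, Slc12a7, Ern1 and Saa1 those of males, and Srf, Dnajb9 and Cyp2b10 those of females, while Neat1 and Ciart overlap.

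The acute phase proteins are secreted by hepatocytes during inflammation. Among 20 acute phase genes tested, Saa1 was the only one called in the average or in males, where 2.14% and 3.98% of all genes were called higher, and none was called in females. The list's median log2 fold change was 0.21 in males and -0.00 in females, against -0.00 over all genes in both. Saa1, serum amyloid A, rose in males from 18.7, 30.7 and 50.2 CPM to 51.6, 68.3 and 72.6 CPM, with no overlap, log2FC 1.05 (SE 0.26, adjusted p = 0.02). Female levels of Saa1 went from 11.7, 14.8 and 38 to 21.7, 33.2 and 45.9 CPM, where the groups overlapped through 1 vehicle library at the top, with log2FC 0.80 (adjusted p = 0.209). Its near-identical copy Saa2 stood at log2FC 0.15 (adjusted p = 0.742) in the average, Hp, haptoglobin, at log2FC 0.19 (adjusted p = 0.192), and Lcn2, lipocalin 2, at log2FC 0.03 (adjusted p = 0.942). Reads could be split between Saa1 and Saa2, so their single values are uncertain, and the call of Saa1 in males was lost in the fit of all 10 groups and without the 4 male vehicle libraries with Xist. Neutrophils also make Lcn2, and in bulk RNA fewer cells of a type and less RNA per cell cannot be told apart. Markers of neutrophils were at 4.54 to 6.26 CPM in sum in male vehicle and 4.79 to 7.89 CPM in dosed male libraries, over 12 markers in the table, with Camp at 0 in both groups.

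The circadian clock is a feedback loop in which CLOCK and ARNTL bind the E-box CACGTG and their targets repress them in turn. Of 11 core clock genes tested, 1 was called in the average, lower, against 1.95% of all genes, and none of 12 clock output genes was. Ciart, a repressor of CLOCK and ARNTL, fell in the average (log2FC -1.35, SE 0.38, adjusted p = 0.048). In males it went from 3.61, 6.16 and 20.2 CPM to 0.757, 1.51 and 6.23 CPM. Its female levels went from 3.36, 11.5 and 15.4 to 3.16, 5.52 and 8.71 CPM. The groups overlapped in both sexes, and male vehicle replicates 1 and 3, those with the least Xist, stood far above the other 4. Other genes of the loop were not called: Arntl stood at log2FC 1.01 (adjusted p = 0.17), Dbp at log2FC -1.27 (adjusted p = 0.16), Nr1d1 at log2FC -1.31 (adjusted p = 0.187) and Per1 at log2FC -0.08 (adjusted p = 0.84) in the average. Arntl, at positive values, and Dbp and Nr1d1, at negative ones, kept these signs in both sexes. No source used here gives the time of day at which livers were taken. The call of Ciart was lost under no low-count filter, a term for the place of the library number in its block of 8, removal of the length or GC trend, the additive model of sex and dose, and without 18 of the 24 libraries in turn.

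The Ciart promoter is printed because it carries the clock's own motif more often than most promoters. RefSeq's sequence on GRCm38.p6 (chr3:95882179-95882478, minus strand, from 250 bases before the start of transcription to 50 after) holds the E-box CACGTG, in capitals, 3 times. The motif reads the same on both strands.
Ciart: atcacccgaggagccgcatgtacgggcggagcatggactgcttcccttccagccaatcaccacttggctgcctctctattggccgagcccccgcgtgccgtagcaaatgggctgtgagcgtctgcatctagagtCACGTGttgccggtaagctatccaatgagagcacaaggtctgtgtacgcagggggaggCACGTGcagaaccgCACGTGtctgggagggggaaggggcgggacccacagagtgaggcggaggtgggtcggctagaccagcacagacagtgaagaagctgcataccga
Of 32851 mouse promoters of this length in RefSeq, 2349 (7.15%) held the motif at least once and 29 (0.0883%) at least 3 times. In the same windows it was not found for Arntl, Dbp or Nr1d1 and was found once in 1 of the promoters listed for Per1. A match describes these letters only.

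Proteins that misfold in the ER activate the sensors IRE1 (Ern1), PERK (Eif2ak3) and ATF6, which raise chaperones and slow translation. Ern1 rose in males from 27.1, 35.4 and 38.3 CPM to 45.2, 56.1 and 63.0 CPM with no overlap, log2FC 0.68 (SE 0.10, adjusted p = 0.00102). Female levels of Ern1 went from 29.4, 38.8 and 41.0 to 31.4, 33.9 and 40.9 CPM with overlap, log2FC -0.08 (adjusted p = 0.79). The difference between the sexes was -0.76 log2 units (SE 0.14, adjusted p = 0.02), a call lost in the fit of all 10 groups. Dnajb9, an ER cochaperone of the HSP70 protein BiP, rose in the average (log2FC 0.66, SE 0.16, adjusted p = 0.0287). In females it went from 36.4, 39.4 and 47.4 CPM to 58.8, 84.7 and 120.9 CPM with no overlap, at log2FC 1.08 (SE 0.23, adjusted p = 0.0822). In males it went from 43.5, 73.9 and 131.7 to 68.6, 85.7 and 124.9 CPM, at log2FC 0.25 (adjusted p = 0.573).

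None of the 19 ER chaperone genes was called in females or in males, and Dnajb9 was the 1 called in the average. In females 16 of the 19 had a positive log2 fold change, with a median of 0.24, and in males 7 did, with a median of -0.08. Hspa5, which encodes BiP itself, went from 584, 678 and 806 CPM in female vehicle libraries to 756, 1201 and 2629.7 CPM, at log2FC 1.01 (adjusted p = 0.168), and had a log2FC of -0.08 in males. Creld2, Manf and Hyou1, which assist folding in the ER, had log2FC of 1.37, 1.07 and 1.03 in females, with adjusted p between 0.192 and 0.232. The sensor Eif2ak3 rose in the average (log2FC 0.36, adjusted p = 0.0219), with log2FC 0.55 in females and 0.18 in males. Ficd, which adds AMP to BiP, rose in the average too (log2FC 0.36, adjusted p = 0.0378), with log2FC 0.61 in females and 0.12 in males. Of 15 genes of the integrated stress response, Ppp1r15a, which restores translation, rose (log2FC 0.52, adjusted p = 0.0261) and Cebpb, a liver transcription factor (log2FC 0.81, adjusted p = 0.0364), both in males, where 3.98% of all genes were called higher, while Ddit3 (CHOP) stood at log2FC 1.00 (adjusted p = 0.106) in females and log2FC -0.30 in males. Cytosolic heat shock chaperones had no call among 19, with positive values for 17 in females (median 0.35) and 9 in males (median -0.04). The calls of Dnajb9, Eif2ak3 and Ficd in the average were lost in the fit of all 10 groups and, with those of Cebpb and Ppp1r15a in males, without the 4 male vehicle libraries with Xist. Eif2ak3, Ficd, Hspa5, Ddit3 and Ern1 were named after their values were seen.

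The promoters of Dnajb9, the ER cochaperone that was called, and of Hspa5, the chaperone it serves, were searched for the ER stress response element and for the E-box CACGTG. The RefSeq promoter of Hspa5 (chr2:34771840-34772139, plus strand, GRCm38.p6) holds the ER stress response element, CCAAT and CCACG with 9 bases of any kind between them, once, with its fixed letters in capitals. That of Dnajb9 (chr12:44210019-44210318, minus strand) does not hold this element. It holds CACGTG, the E-box described above for the clock, once, in capitals, as 7.15% of the 32851 promoters do at least once. With the base before it, this match also spells CCACG, the second part of the ER stress response element. These matches describe letters only.
Hspa5: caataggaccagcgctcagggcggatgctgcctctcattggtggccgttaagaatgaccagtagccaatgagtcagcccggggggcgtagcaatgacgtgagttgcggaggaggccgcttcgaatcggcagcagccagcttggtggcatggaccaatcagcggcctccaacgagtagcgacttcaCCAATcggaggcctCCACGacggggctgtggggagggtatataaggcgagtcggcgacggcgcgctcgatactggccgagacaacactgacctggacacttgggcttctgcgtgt
Dnajb9: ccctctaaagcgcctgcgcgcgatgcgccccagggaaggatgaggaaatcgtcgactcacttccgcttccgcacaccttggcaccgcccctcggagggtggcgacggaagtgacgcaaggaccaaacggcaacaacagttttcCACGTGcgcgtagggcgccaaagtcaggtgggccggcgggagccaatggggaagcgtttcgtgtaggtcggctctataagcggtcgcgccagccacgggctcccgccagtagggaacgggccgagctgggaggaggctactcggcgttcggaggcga
Searched on both strands, the ER stress response element was found in 39 of the 32851 promoters (0.119%), and not in those of Dnajb9, Ddit3, Eif2ak3 or Ficd.

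Among the genes called in males and reported here, the 5 lowest values belonged to transcripts of the female liver. In males Xist, the RNA that coats the inactive X chromosome, stood at log2FC -4.91 (adjusted p = 0.0054), the P450 genes Cyp2b13 at log2FC -4.11 (adjusted p = 0.0208), Cyp2b9 at log2FC -3.47 (adjusted p = 0.00197) and Cyp2a4 at log2FC -2.29 (adjusted p = 0.00912), and the sulfotransferase Sult3a1 at log2FC -3.54 (adjusted p = 0.0312). These rest on few reads. The 6 male vehicle libraries held 274 reads of Xist, 236 of Cyp2b9, 70 of Cyp2b13, 37 of Sult3a1 and 381 of Cyp2a4, and the 6 dosed male libraries 10, 24, 4, 3 and 88. Fitted values at so few reads depend on the prior count and are not bounds. In vehicle replicates 5 to 8 the genes ran at 0.129% to 1.54% of their mean in female vehicle libraries. In vehicle replicates 1 and 3 the highest value of any of the 5 genes was 0.227%. Without the 4 libraries Xist stood at log2FC 0.44 in males and Cyp2b13 at 2.73, neither called, so both directions turned. The part of these 4 libraries in other male results was examined only by leaving them out. Cyp2a4 and Sult3a1 also lost their calls, and Cyp2b9 kept its call. Over the list of 22 female-biased liver genes, 6 were called lower in males, against 2.99% of all genes, with a median log2 fold change of -1.32. The list's lowest member was Xist, at log2FC -4.91, so this count is not separate from the values above. The list was not counted again without the 4 libraries. None was called in females, where the median was 0.17. Abcd2, a peroxisomal fatty acid transporter of that list, had log2FC -1.09 (adjusted p = 0.00894) in males. Since the Cyp2b and Cyp2a genes have near-identical copies, reads could be split between them.

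**Figure D3:**
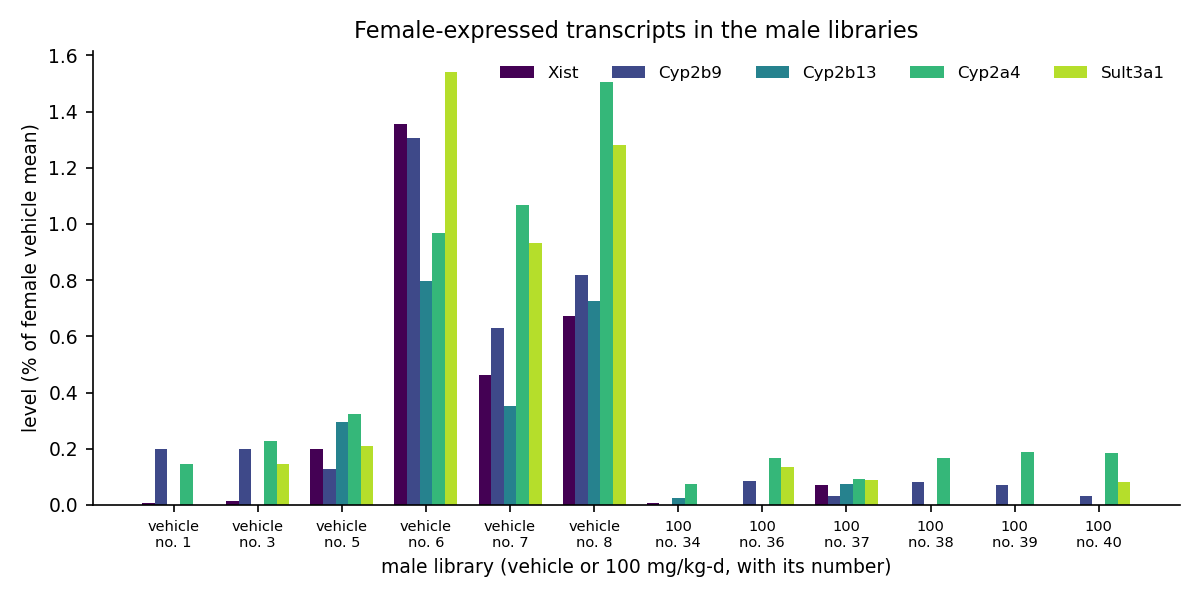
Level of 5 female-expressed transcripts in each male library, as a percent of the mean of the 6 female vehicle libraries. Vehicle replicates 6, 7 and 8 stand highest for each of the 5 transcripts, and the 6 libraries at 100 mg/kg-d all lie below them.

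Of 22 genes of male-biased expression, 2 were called higher in males, against 3.98% of all genes, and none lower. The complement gene C6 rose in males (log2FC 0.61, adjusted p = 0.0315), as did C8a (log2FC 0.48, adjusted p = 0.0382). The list's median log2FC was 0.30 in males and -0.12 in females. Of 12 growth hormone signalling genes, Igf1, which encodes the growth factor IGF-1, rose (log2FC 0.34, adjusted p = 0.0372) and the kinase Jak2 (log2FC 0.28, adjusted p = 0.0495) in males. After Ect2, Cyp2c40 had the highest value of the named male calls (log2FC 1.49, SE 0.38, adjusted p = 0.0214), from 5.69, 10.4 and 25.3 to 15.4, 37.1 and 70.0 CPM. Its female vehicle levels were 279.6, 344 and 542 CPM, so this P450, whose family has near-identical copies, is at a higher level in females and rose in males, unlike the female liver transcripts called lower above. B3galt1, a galactosyltransferase, Plcxd2 and Rnf125, an E3 ubiquitin ligase, rose by 1.39, 1.18 and 1.08 on the log2 scale in males, with adjusted p between 0.0127 and 0.0276. The calls of C8a, Igf1, Jak2, Plcxd2 and Rnf125 were lost without the 4 male vehicle libraries with Xist, and those of C6, C8a, Igf1 and Jak2 with the GC trend removed.

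Of 17 nuclear and splicing-linked RNAs tested, 8 fell in males and none rose, against 2.99% of all genes called lower, with a median log2 fold change of -0.42 and all 17 below 0. None was called in females, where the median was -0.03, and the difference between the sexes passed for 4. Neat1, the scaffold RNA of paraspeckles, went in males from 120.3, 446 and 566 CPM to 47.3, 96.5 and 201.6 CPM, at log2FC -1.86 (SE 0.38, adjusted p = 0.00654). Female levels of Neat1 went from 232.9, 349 and 557 to 208.1, 309 and 529 CPM, at log2FC -0.15 (adjusted p = 0.906). Only 1 of the 6 male vehicle libraries lay within the range of the dosed males. Malat1, an abundant RNA of nuclear speckles, went from 696, 811 and 1005 to 333, 528 and 883 CPM in males, at log2FC -0.60 (adjusted p = 0.0472). In females it went from 608, 716 and 913 to 790.4, 1142 and 1174 CPM, at log2FC 0.54 (adjusted p = 0.209). Its values lay on opposite sides of 0 in the 2 sexes, and the difference passed, 1.15 log2 units (SE 0.26, adjusted p = 0.0332).

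Kcnq1ot1, an imprinted antisense RNA, had a log2FC of -0.95 in males and 0.80 in females, with a difference of 1.75 log2 units (adjusted p = 0.02). Gas5, a host of small nucleolar RNAs, fell in males (log2FC -0.68, adjusted p = 0.00606), with a difference between the sexes of 1.05 log2 units (adjusted p = 0.02). Ccnl2, a cyclin of splicing speckles, also fell (log2FC -0.49, adjusted p = 0.00397), with a difference of 0.66 log2 units (adjusted p = 0.02). In males Snhg11, another host of small nucleolar RNAs, fell (log2FC -1.49, adjusted p = 0.00602), as did the imprinted Meg3 (log2FC -1.14, adjusted p = 0.0235) and the splicing factor Luc7l2 (log2FC -0.31, adjusted p = 0.0435). Strand-specific counting is not stated, so reads of Kcnq1ot1 and of Kcnq1, on the opposite strand, cannot be told apart. The male calls of Malat1, Kcnq1ot1, Ccnl2, Meg3 and Luc7l2 and the differences of Malat1, Kcnq1ot1 and Ccnl2 were lost without the 4 male vehicle libraries with Xist, while the male calls of Neat1, Gas5 and Snhg11 were not. Kcnq1ot1, Meg3 and Luc7l2 were named after their values were seen.

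Srebf1 and Mlxipl, regulators of fatty acid synthesis, fell in males. Of 19 genes of fatty acid synthesis, 2 were called lower in males, against 2.99% of all genes, with a list median log2FC of -0.45, and none in females, with a median of -0.06. Srebf1, which drives the genes of fatty acid synthesis, went from 251.001, 422 and 552 CPM to 148.02, 189.4 and 345 CPM in males, at log2FC -0.89 (SE 0.22, adjusted p = 0.018). Mlxipl, the sugar-sensing factor ChREBP, fell (log2FC -0.45, adjusted p = 0.0411). Their targets Acly, Acss2 and Thrsp had log2FC of -0.81, -0.71 and -0.69 in males and -0.06, -0.31 and -0.14 in females, none called. None of 25 sterol genes and none of 28 PPAR-alpha targets, which burn fatty acids, was called in either sex, with male median log2FC of -0.25 and -0.01. The calls of Srebf1 and Mlxipl were lost without the 4 male vehicle libraries with Xist.

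Among genes of foreign-compound metabolism the calls in males were nearly all lower. Of 32 CAR and PXR targets, 10 were called lower in males and none higher, with a median log2FC of -0.13, and none was called in females, with a median of 0.08. Over all genes 2.99% were called lower in males. The 10 included Cyp2b9, Cyp2b13 and Cyp2a4, described above, and the transporter Abcc3, at log2FC -0.46 (adjusted p = 0.00286) in males and log2FC 0.05 in females, with a difference of 0.52 log2 units (adjusted p = 0.0339). The P450 Cyp3a25 fell (log2FC -0.39, adjusted p = 0.00998), as did the glutathione transferases Gstm1 (log2FC -0.77, adjusted p = 0.0114) and Gsta2 (log2FC -1.07, adjusted p = 0.0217) and the P450 Cyp2a5 (log2FC -0.74, adjusted p = 0.0106). The transporters Slco1a4 and Abcb1a had log2FC of -0.60 and -0.58. Cyp2b10, the best-known CAR target, went in females from 38.3, 53.7 and 83.9 CPM to 86.6, 121.4 and 181.7 CPM, all 6 above all 6, and yet the test did not pass it, at log2FC 1.19 (SE 0.38, adjusted p = 0.192). In males it went from 7.55, 22.8 and 40.9 to 11.2, 25.7 and 56.4 CPM, at log2FC 0.43 (adjusted p = 0.567). The PXR target Cyp3a11 had a log2FC of -0.00 in the average, Cyp2c29 -0.16, and the AHR targets Cyp1a1 and Cyp1a2 -0.17 and 0.03, none called. The difference of Abcc3 was lost with no low-count filter, in the fit of all 10 groups and with the GC trend removed, and the male calls of Cyp3a25 and Slco1a4 in the fit of all 10 groups. Cyp2a5, Slco1a4 and Abcb1a were named after their values were seen.

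Of 19 NRF2 targets tested, 5 were called lower in males, against 2.99% of all genes, and 1 higher, a share near the 3.98% of all genes. Nqo1, a quinone reductase, stood at log2FC -0.91 (adjusted p = 0.0285) in males and was also the 1 call among 6 AHR targets, and Gsta4, Ephx1 and Tkt, of conjugation, epoxide hydrolysis and the pentose phosphate route, had log2FC of -0.47, -0.39 and -0.30. Gclm, the regulatory subunit of the enzyme that limits glutathione synthesis, rose (log2FC 0.39, adjusted p = 0.00197). The male calls of Gsta2, Gsta4, Nqo1, Abcb1a, Ephx1 and Tkt were lost without the 4 male vehicle libraries with Xist, and those of Gclm, Gstm1, Abcc3, Cyp3a25, Slco1a4 and Cyp2a5 were not. Ephx1 and Tkt were named after their values were seen.

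In the average 3 of 10 periportal markers were called lower, against 1.95% of all genes: Sds, serine dehydratase, at log2FC -0.70 (adjusted p = 0.0411), Hal, histidine ammonia-lyase, at log2FC -0.27 (adjusted p = 0.0182), and Aldh1b1 at log2FC -0.34 (adjusted p = 0.0405). The median log2FC of the 10 markers was -0.06, and 4 of them lay above 0, at up to 0.27. Among 24 interferon-stimulated genes Oasl1 was called lower in males, against 2.99% of all genes (log2FC -0.96, adjusted p = 0.038), and the list's median log2FC was -0.31 in males and -0.12 in females. Of 31 proteasome subunits Psma7 was called, at log2FC -0.19 (adjusted p = 0.0497), and 30 of the 31 lay below 0 in the average, with a median log2FC of -0.14. Ribosome biogenesis held 2 calls of 24, Nop58 (log2FC 0.47) and Ddx21 (log2FC 0.26), both higher. Over all genes 2.14% were called higher. Single higher calls were Rps2 among 35 ribosomal proteins (log2FC 0.31), Cox5a among 57 respiratory chain genes (log2FC 0.24), Fas among 13 p53 targets (log2FC 0.27) and Jund among 14 immediate early genes (log2FC 0.31). Each of these calls was lost under at least 1 alternative, those of Hal and Jund only in the fit of all 10 groups. No cell cycle gene of 19 and no sterol or bile acid gene was called in the average.

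None of 12 hepatocyte, 12 pericentral and 12 Kupffer cell markers was called in the average or in either sex. The 12 Kupffer cell markers summed to 257 to 354 CPM in male vehicle and 253 to 296 CPM in dosed male libraries, and to 342 to 519 CPM and 334 to 508 CPM in females, with no marker at 0 in a group. In the average the endothelial receptor Fcgr2b, at log2FC 0.19, was the 1 call of 12 sinusoidal endothelium markers, where 2.14% of all genes were called higher. The bile duct marker Spp1, at log2FC -0.25, was the 1 call of 6 tested, where 1.95% of all genes were called lower. The pericyte marker Rgs5, at log2FC 0.47, was the 1 call of 12 stellate cell and fibroblast markers in males, where 3.98% of all genes were called higher. Of those 12 markers 6 lay above 0 in males, with a median log2FC of 0.02. Skeletal muscle markers reached 16.96 CPM in sum in 1 dosed male library and at most 2.30 CPM in the male vehicle libraries.

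In females, 10 genes were called. Nfxl1, a zinc finger protein, rose from 7.54, 9.05 and 11.7 CPM to 13.99, 16.2 and 19.4 CPM, at log2FC 0.85 (SE 0.15, adjusted p = 0.0337). Samd1, a chromatin-binding protein of CpG islands, rose (log2FC 0.68, adjusted p = 0.0337), as did Alg2, a mannosyltransferase of N-glycan assembly in the ER (log2FC 0.64, adjusted p = 0.0414). Pnpla6, the ER phospholipase known as neuropathy target esterase, rose too (log2FC 0.55, adjusted p = 0.0414). The predicted gene Gm6568 had the highest value, log2FC 1.24 (adjusted p = 0.037), and is named because the calls are few. On the lower side Nsmce1, a subunit of the SMC5/6 complex, went from 3.84, 5.13 and 5.73 CPM to 2.53, 2.97 and 3.83 CPM, at log2FC -0.69 (SE 0.13, adjusted p = 0.0337). Tomm40l, a pore protein of the mitochondrial outer membrane, fell (log2FC -0.72, adjusted p = 0.0337) and Ctps2, a CTP synthase (log2FC -0.49, adjusted p = 0.0414), beside Gng7 and Camkmt. In males Nsmce1 and Pnpla6 stood on the other side of 0, at log2FC 0.10 and -0.33, and Nfxl1 and Samd1 had log2FC of 0.00 and 0.01. Without female vehicle replicate 9, 11, 12 or 14, or without female replicate 42, 45 or 48 at the dose, no gene was called in females, and without replicate 43 at the dose 25 were. In the fit of all 10 groups 5 genes were called.

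The effect differed between the sexes for 110 genes. By adjusted p the first were Znrf2, an E3 ubiquitin ligase, at -0.63 log2 units (SE 0.11, adjusted p = 0.0143), Pnpla6 at 0.87 log2 units (SE 0.15, adjusted p = 0.0143), Igflr1 at 1.48 log2 units (adjusted p = 0.0143) and Rbm3, a cold-inducible RNA-binding protein, at 1.14 log2 units (adjusted p = 0.0143), as female minus male. Znrf2 went from 24.5, 29.1 and 31.2 to 34.9, 37.8 and 45.9 CPM in males. Female levels of Znrf2 went from 24.1, 24.9 and 28.6 to 21.2, 23.7 and 24.3 CPM. Tmod4, a capping protein of actin filaments, had the largest of the named differences besides the female-expressed transcripts, 2.03 log2 units (adjusted p = 0.02), from 1.31, 1.52 and 2.26 to 0.152, 0.532 and 0.859 CPM in males. Msi2, an RNA-binding protein, had a log2FC of 0.35 in males and -0.33 in females, with a difference of -0.68 log2 units (adjusted p = 0.02). Among these, the difference of Igflr1 was lost without the 4 male vehicle libraries with Xist and that of Msi2 in the fit of all 10 groups.

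The male changes varied with the base composition of the transcripts. Genes called higher in males had a median GC content of 44.5% and genes called lower 55.0%, against 50.5% over the 12287 genes with a transcript in GENCODE M21. Their median transcript lengths were 2157, 1230 and 1424 bases. Across genes, which are not independent replicates, Spearman's rho of the log2 fold change with GC content was -0.295 in males and 0.000653 in females. In males the median log2 fold change fell from 0.12 for genes of up to 42% GC to -0.08 for those over 54%, and the share of higher genes among the calls from 91.1% to 9.5%. Each dosed male library had a lower rho with GC content (-0.279 to -0.0810) than each male vehicle library (-0.0469 to 0.132). In females the ranges of the 2 groups overlapped, 0.145 to 0.284 at the dose and 0.104 to 0.279 in vehicle. The part of base composition in the male calls was not tested beyond removing its trend from each library, which left 501 calls in males, 430 of them among the 861. Dcaf4, Slc12a7, Fdxr, Ern1, Neat1 and Srf kept their male calls, and Skil, C6, C8a, Igf1, Mlxipl and Ephx1 did not.

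**Figure D4:**
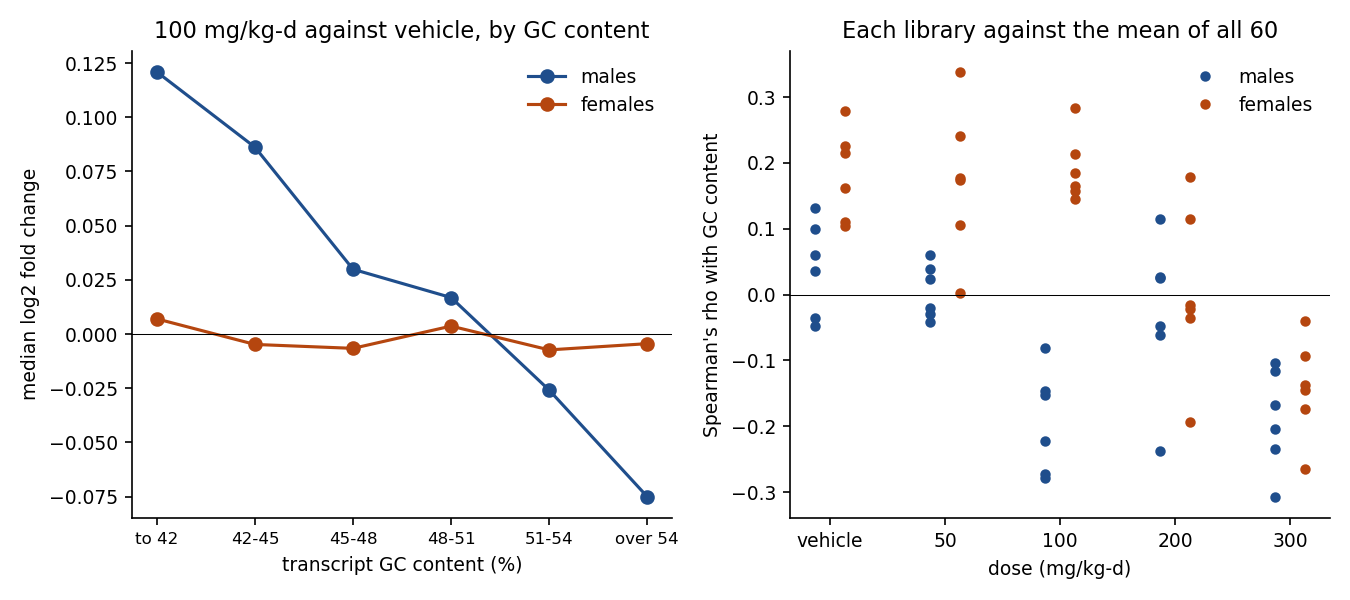
Left, median log2 fold change at 100 mg/kg-d against vehicle over genes in bins of transcript GC content, by sex, with lines joining the bins. Right, Spearman's rho between GC content and the deviation of a library from the mean of all 60 liver libraries of day 2, 1 point per library, with dosed males at 100 mg/kg-d all below male vehicle libraries.

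Direct contrasts with the neighbouring doses set no level against vehicle, though the vehicle libraries enter the fit of all 60 libraries through the filter, scaling and estimate of the spread. Between 50 and 100 mg/kg-d, none of 12627 genes was called in the average, with 1533 at an unadjusted p under 0.05 in edgeR and 1 call in DESeq2. In males 14 were (0.111%), 2 higher (0.0158%) and 12 lower (0.095%) at 100, and in females 3 (0.0238%), 1 higher (0.00792%) and 2 lower (0.0158%). Malat1 was among the 14: it stood at 1033 CPM (SD 165.6) at 50 and 540.4 CPM (SD 208.6) at 100 mg/kg-d in males (n = 6 each), a difference of -0.93 log2 units (SE 0.19, adjusted p = 0.014). Fam193b, Mapk8ip3, a scaffold of JNK signalling, Ccnl2 and Rgl2, an exchange factor for Ral, were lower at 100 than at 50 mg/kg-d, with log2 differences of -0.60, -0.54, -0.46 and -0.51, each at an adjusted p of 0.00446. Bmi1, a Polycomb protein, and Rab18, a GTPase of lipid droplets, were higher at 100 by 0.30 and 0.25 on the log2 scale. The calls of Malat1 and Rgl2 were lost in a fit of only the 4 groups of these doses, and those of Bmi1 and Rab18 with no low-count filter. In females Nsmce1 differed by -0.61 log2 units (adjusted p = 0.0493), Fgfrl1, a receptor of the FGF family, by -0.67, and Srsf10, a splicing factor, by 0.39 on the same scale, all 3 lost with no low-count filter, with the term for the library number's place and in the fit of 4 groups. The count in males ran from 4 without male replicate 40 at 100 mg/kg-d to 60 without replicate 34, and that in females was 0 without any 1 of 9 libraries.

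Between 100 and 200 mg/kg-d, 0.942% of genes were called in males, 64 higher (0.507%) and 55 lower (0.436%) at 200. Of these, Fam193b, Mapk8ip3, Ccnl2, Rgl2 and Malat1 were higher at 200, with log2 differences of 0.63, 0.50, 0.43, 0.42 and 0.75. Both tests share the 100 mg/kg-d libraries, so these are values side by side and not independent of each other. The male libraries at 100 mg/kg-d also had a lower median rho with GC content, -0.187, than those at 50 (0.00158) and 200 (-0.0107). The ranges at 100 and 200 overlapped. Removal of the GC trend was not run between doses, so the part of base composition there was not tested. Neat1 in males stood at 393 CPM (SD 173.4) in vehicle, 186.4 CPM (SD 50.7) at 50, 107.8 CPM (SD 57.2) at 100, 335 CPM (SD 93.2) at 200 and 204.9 CPM (SD 76.5) at 300 mg/kg-d. The level at 100 mg/kg-d was the lowest of the 5, and the step to 200 was 1.64 log2 units (SE 0.32, adjusted p = 0.00677). Vegfa, the endothelial growth factor, was higher at 200, with a log2 difference of 0.49, and Znrf2, Mdfic and Aadat, an aminotransferase of tryptophan breakdown, were lower, with log2 differences of -0.40, -0.60 and -0.54. The calls of Malat1 and Rgl2 were lost in the fit of only the 4 groups of these doses. Cyp2c40, higher at 100 mg/kg-d than in vehicle, was lower at 200 (log2FC -2.17, SE 0.35, adjusted p = 0.00103). The male count fell to 26 without male replicate 37 at 100 mg/kg-d, to 49 without replicate 39 and to 56 without replicate 38, and rose to 211 without replicate 36.

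In the average 5 genes differed between 100 and 200 mg/kg-d (0.0396%), 4 higher (0.0317%) and 1 lower (0.00792%) at 200. Besides Cyp2c40 these were, with log2 differences of 200 minus 100, Pde7a, a phosphodiesterase (0.46), the apolipoprotein Apoa4 (0.72), Mat1a, which makes S-adenosylmethionine in liver (0.60), and Morc3, a chromatin ATPase (0.32). All 5 calls were lost in the fit of only 4 groups, and all but that of Pde7a without at least 10 of 13 libraries in turn. In females 1004 genes were called (7.95%), 775 higher (6.14%) and 229 lower (1.81%) at 200, and 2 in the fit of 4 groups. Without female replicate 64 at 200 mg/kg-d, 2 genes were called in females, both among the 1004, and 1 in the average. Of the female genes with the smallest adjusted p, the higher ones at 200 were Lepr, the leptin receptor, Setdb2, Sclt1 and Rnf115, and the lower ones Mfsd12, H2-K2, Mlxipl and Pnpla6. Sclt1, a centriole protein, kept its call without that library, and the other 7 lost theirs. Lepr had a log2 difference of 4.25 with replicate 64 and 1.11 without it. H2-K2 has near-identical copies, so its reads could be split. Cyp2b10 in females stood at 56.7 CPM (SD 16.8) in vehicle, 94.7 CPM (SD 36.3) at 50, 129.5 CPM (SD 41.3) at 100 and 317 CPM (SD 122.8) at 300 mg/kg-d. Its median at 200 mg/kg-d was 189.9 CPM, with replicate 64 at 2587 CPM.

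**Figure D5:**
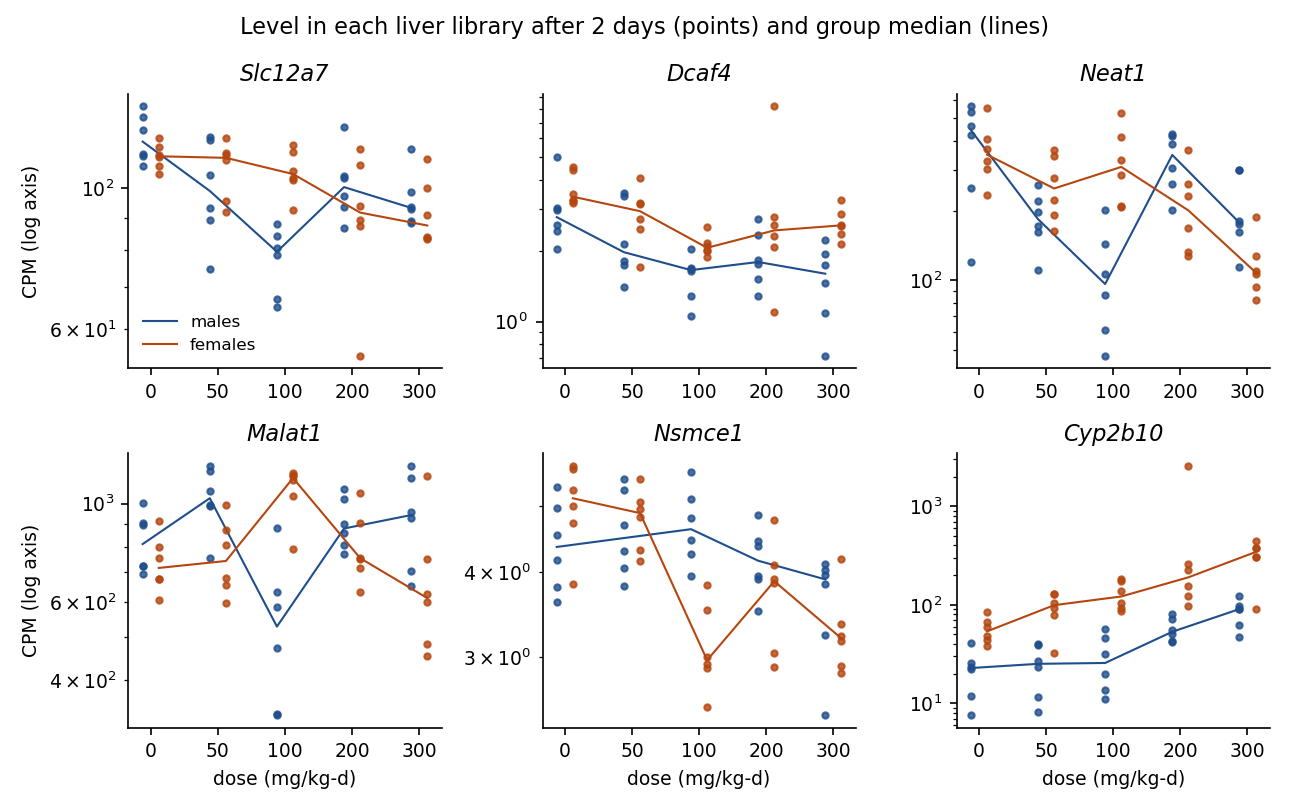
Level of 6 genes in each liver library of day 2 by dose (log axes, CPM), with lines through the group medians, males in blue and females in orange. Slc12a7 and Neat1 in males and Nsmce1 in females have their lowest median at 100 mg/kg-d, and Cyp2b10 in females rises in median from 53.7 CPM in vehicle to its highest at 300 mg/kg-d.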

How the data were processed

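RNA was sequenced from TruSeq Stranded mRNA libraries. The tools of the authors were, per the submitters' processing notes, HTSeq, Bowtie2, SAMtools and Trimmomatic, with the build mm10. Versions, annotation and strand setting: not given in the sources used here. Deposited were raw counts per gene. All 60 columns of the day 2 liver table were mapped to samples. From these counts, edgeR 4.0.16 (R 4.3.3) removed low genes with filterByExpr, scaled with TMM and ran a robust quasi-likelihood test. Every adjusted p is Benjamini-Hochberg over all genes tested. The 24 libraries were fitted with 1 mean per dose and sex group. The contrasts were the average over the sexes, each sex and female minus male. Neighbouring doses were compared in a fit of all 60 libraries, whose TMM factors also scale the CPM printed. Genes were named by fold change, adjusted p, membership of the 30 pathway and 15 cell type lists and a panel of 40 genes, passing over predicted gene models and means under 1 CPM, and exceptions are marked. Some genes that meet the rule are not reported here. Members and lists were chosen with earlier results of these data known. Alternatives were RLE size factors, no filter, DESeq2 1.42.0, all 10 groups, only the 4 groups of the doses compared, the library number's place in blocks of 8, a length trend, an additive model and leaving out each library. Removal of the GC trend, without male vehicle replicates 5 to 8, and without female replicate 64 at 200 mg/kg-d were chosen after seeing the data. Trends used lowess (span 0.3) on GENCODE M21 transcripts, matched for 12287 of the genes tested (99.5%). The scripts were tested on simulated data.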

Additional observations from a re-analysis of the deposited data

Results flagged for a closer look

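Over the genes named or checked, 600 groups of 6 values were examined for a highest or lowest library set apart from the rest. The cut flags about 1 in 20 groups of normally distributed values. Here the values were CPM without a log scale, for genes often chosen from these same data, so that rate may not hold. The cut flagged 43 libraries in this way. Female vehicle replicate 9 had 7 of them: Apoa4 at 744 CPM, Cyp2c55 at 23.8, Ephx1 at 462, Gsta2 at 22.8 and Snhg11 at 5.65 CPM were high, and Hp at 1374 and Aadat at 94.3 CPM were low. Female vehicle replicate 11 was highest for C8a (545 CPM), Igfbp1 (61.3 CPM), Mt2 (99.7 CPM) and Saa1 (38 CPM). In the other female vehicle libraries, replicate 10 was lowest for Camkmt (0.647 CPM), replicate 12 highest for Cyp2a5 (1967 CPM), replicate 14 for Srf (12.5 CPM), and replicate 15 for Cyp2b13 (405 CPM) and Psma7 (102.3 CPM).

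Among females at 100 mg/kg-d, replicate 43 was highest for Gnat1 (12.4 CPM), Igfbp1 (36.1 CPM), Lrrc24 (4.60 CPM) and Nr1d1 (44.2 CPM) and lowest for Fas (17.7 CPM). Replicate 48 was lowest for Araf (54.4 CPM) and Malat1 (790.4 CPM). In male vehicle libraries, replicate 8 was highest for Cdkn1a (18.2 CPM), Fam107a (4.61 CPM), Mt2 (58.9 CPM) and Skil (22.6 CPM). Replicate 6 was set apart for Dcaf4 (4.99 CPM), Hp (3077 CPM) and Msi2 (15.6 CPM), and replicate 3 was lowest for Pde7a (4.65 CPM).

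Among males at 100 mg/kg-d, replicate 40 stood apart for Hspa5 (1984 CPM), Igf1 (1014 CPM) and Rab18 (128.9 CPM), and replicate 36 for Gstm1 (682 CPM), Saa2 (13.98 CPM) and, at the low end, C8a (855 CPM). Replicate 34 stood apart for Dbp (104.4 CPM) and Nr1d1 (64.3 CPM), replicate 37 for Cyp2b13 (0.211 CPM) and Xist (0.634 CPM), and replicate 38 for Igfbp1 (248 CPM) and Mt2 (122.6 CPM).

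The effect of the dose differed between the sexes, by the test of the difference, for 24 of the genes reported here. As female minus male on the log2 scale, the differences above 0 were 4.77 for Xist, 3.48 for Cyp2b9, 2.03 for Tmod4, 1.75 for Kcnq1ot1, 1.48 for Igflr1, 1.15 for Malat1, 1.14 for Rbm3 and 1.05 for Gas5. Smaller ones were 0.87 for Pnpla6, 0.84 for Fam193b, 0.84 for Nfxl1, 0.71 for Mapk8ip3, 0.66 for Ccnl2, 0.57 for Fdxr, 0.56 for Vegfa, 0.55 for Slc12a7, 0.52 for Abcc3 and 0.50 for Rgl2. Differences below 0 were -0.79 for Nsmce1, -0.76 for Ern1, -0.68 for Msi2, -0.64 for Mdfic, -0.63 for Znrf2 and -0.32 for Rab18.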

How the results depend on the processing

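In what follows the counts of called genes are given for the average over the sexes, males, females and the difference between the sexes, in that order. They were 505, 861, 10 and 110, and the cause of their changes was not tested. They were 314, 651, 6 and 73 with no low-count filter, 843, 1113, 67 and 344 in DESeq2, 210, 594, 5 and 69 in the fit of all 10 groups, and 343, 893, 8 and 187 with the place of the library number as a term. With the GC trend removed they were 255, 501, 11 and 48, and with GC and length trends removed 263, 516, 11 and 59. Without male vehicle replicates 5 to 8 they were 424, 386, 16 and 76, of which 230, 270, 8 and 36 were calls of the main fit. The additive model called 295 in the average. RLE size factors and the length trend moved none of the 4 counts by over 1.5 times. The share of higher calls in the difference was 54.5%, and 70.8% with the GC trend removed, 67.8% with GC and length removed, 65.2% with all 10 groups and 42.2% in DESeq2. In females it was 50%, and 66.7% with no filter, 20% with all 10 groups, 75% with the place term and 62.5% without male vehicle replicates 5 to 8. Without those replicates Cyp2b13 turned to log2FC 1.43 in the average and 2.73 in males, and Xist to 0.15 in the average, 0.44 in males and -0.57 in the difference.

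In the tests between doses the counts for 100 minus 50 in the average, males and females were 0, 14 and 3. They were 0, 9 and 0 with no filter, 1, 52 and 9 in DESeq2, 0, 22 and 0 with the place term, and 0, 10 and 0 with only the 4 groups compared. For 200 minus 100 the counts were 5 in the average, 64 higher and 55 lower in males, and 1004 in females. They were 1, 72 and 698 with no filter, 30, 207 and 1210 in DESeq2, 16, 98 and 1296 with the place term, and 0, 22 and 2 with only 4 groups, where 872 genes had an unadjusted p under 0.05 in the average. The share of higher calls in males moved from 14.3% to 0% with no filter, 40.4% in DESeq2 and 40% with 4 groups for 100 minus 50, and from 53.8% to 68.2% with 4 groups for 200 minus 100. For 200 minus 100 in the average it was 80%, and 100% with no filter, 93.3% in DESeq2 and 93.8% with the place term, and in females 77.2%, and 50% with 4 groups. Leaving out female replicate 64 at 200 mg/kg-d gave 1 call in the average and 2 in females.

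Leaving out 1 library at a time gave 202 to 837 calls in the average, 442 to 1219 in males, 0 to 25 in females and 37 to 170 in the difference. For 100 minus 50 it gave 0 to 1, 4 to 60 and 0 to 3, and for 200 minus 100 it gave 1 to 5, 26 to 211 and 458 to 1000. Libraries are numbered 1 to 15 in vehicle and 34 to 48 at 100 mg/kg-d, with males up to 8 and up to 40. The average fell to 202 without 3 or without 40, 242 without 46, 247 without 6, 254 without 37, 263 without 10, 275 without 12, 284 without 45, 293 without 48, 315 without 38 and 334 without 47, and rose to 837 without 8. The male count fell to 442 without 6, 445 without 37, 480 without 3, 558 without 38 and 568 without 40. The female count was 0 without 9, 11, 12, 14, 42, 45 or 48, 1 without 15, 5 without 7, 10, 34 or 38, 6 without 39, 16 without 1, 20 without 40 and 25 without 43. The difference fell to 37 without 45, 39 without 37, 44 without 42, 45 without 6 or 48, 47 without 14, 48 without 9, 59 without 3, 61 without 11, 64 without 38, 71 without 39 and 72 without 15, and rose to 170 without 8. For 100 minus 50 the male count was 60 without 34, 9 without 38 or 39, 6 without 37 and 4 without 40, and the female count 0 without 34, 36, 37, 38, 42, 45, 46, 47 or 48. For 200 minus 100 the average was 2 without 40 and 1 without 37, 38, 39, 42, 43, 45, 46 or 48. The male count was 211 without 36, 56 without 38, 49 without 39 and 26 without 37, and the female count 658 without 45, 537 without 48 and 458 without 42.

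Of the genes reported here as called against vehicle, 17 of 67 in the average, 29 of 79 in males, 3 of 10 in females and 8 of 24 in the difference kept their call under every alternative but the leaving out of single libraries, and 17, 28, 0 and 8 also without each library. Removal of the GC trend ended 21, 13, 0 and 7 of these calls, and leaving out male vehicle replicates 5 to 8 ended 28, 40, 2 and 9. The latter fit kept only male vehicle replicates 1 and 3 and so had less power. For the calls that ended there, Xist, the number of libraries and other differences between these libraries cannot be told apart. No paired analysis was possible because the groups compared share no library number. Groups of 6 libraries of 8457034 to 20405658 counts limit the calls of genes at low CPM, and fold changes of genes with few reads, such as Xist and Cyp2b13 in males, are imprecise. The labels tie no library to a mouse.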
